A study of Arabidopsis thaliana with 9 samples.

Results

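The 10 loci described here are the Arabidopsis thaliana genes that act in the morning arm of the circadian clock. They are the MYB-like genes CCA1, LHY, RVE1, RVE4, RVE6, and RVE8 and the coactivator genes LNK1, LNK2, LNK3, and LNK4. They were set by a list of locus numbers whose rule uses no measured value, though earlier results of these data were known when it was made. They are 10 of the 32310 loci and 48 of the 53467 transcripts in the RNA-seq tables. For each locus, estimated reads and TPM (the level of a transcript as a fixed-sum share of all transcripts, corrected for length) were summed over its transcripts, and the share of each transcript in the TPM of its locus was taken.

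The libraries come from wild type Col-0 seedlings grown in long days. Controls were taken at 22 °C (0 h), and 2 further groups after 3 and 12 h at 4 °C. Each group has 3 biological replicates of pooled seedlings from separate plates. The cold began 4 h after lights on (ZT4), so the groups stand for ZT4, ZT7, and ZT16, and the light in the cold was dimmer than at 22 °C. No control at 22 °C was taken at ZT7 or ZT16, so cold, light, and time of day cannot be told apart in any comparison with 22 °C, and cold duration and time of day cannot be told apart between 3 and 12 h. The labels give an age of 10 days, while the treatment notes place the cold on 12-day-old seedlings.

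In the Arabidopsis clock, CCA1 and LHY accumulate around dawn and repress genes of the day and evening, among them the PRR genes, TOC1, GI, LUX, and ELF4. RVE4, RVE6, and RVE8 carry a related MYB domain but activate such genes, together with LNK proteins that they recruit. RVE1 belongs to the same protein family and links the clock to auxin synthesis. Several of these genes are known for splice forms that depend on temperature, including a CCA1 form, CCA1β, that keeps sequence of intron 4 and lacks the MYB domain.

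The libraries hold 15910839 to 24291683 assigned reads. Of these, 26434 to 37980 reads per library, or 0.141% to 0.183%, were assigned to the 10 loci, and every locus passed the filter on low counts. Of the 48 transcripts, 26 reached a mean share of at least 10% of their locus in at least 1 group and are named below. The other 22 stayed below 10%, and 8 of those were never assigned a read. All 48 have the same length in the tables and in the TAIR10.1 annotation, so positions are given in TAIR10.1. Summed TPM of 4 green-tissue markers was 31430 to 39920 over all libraries, and that of 5 root markers was 183 to 247 at 22 °C, 220 to 290 after 3 h, and 227 to 274 after 12 h, with overlapping groups for both lists. The part of tissue composition in the results was not tested. In whole seedlings, fewer cells of a type and less RNA per cell cannot be told apart.

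Of the 10 loci, 2 were higher after 3 h than at 22 °C (RVE1 and LNK3), beside 7.05% of the 20460 loci tested, and none was lower, beside 3.47%. The calls are from edgeR's quasi-likelihood F test with Benjamini-Hochberg adjustment, at 0.05 for the adjusted p and with a fold minimum of 0.5 in either direction on the log2 scale. At an unadjusted p under 0.05 and with no fold minimum, 4 loci were lower and 3 higher at 3 h. No share over all loci is given at this looser threshold, so these counts cannot be set against one. With the adjusted p and the fold minimum, DESeq2 called 0 lower at 3 h. After 12 h, 5 of the 10 were higher than at 22 °C (CCA1, RVE1, RVE6, LNK3, and LNK4), beside 15.5% of all loci, and 3 were lower (LHY, RVE8, and LNK2), beside 17.7%. Between 3 and 12 h, 4 rose (CCA1, RVE6, LNK3, and LNK4), beside 11.0% of all loci, and none fell, beside 14.8%. For that comparison 2 loci were lower and 4 higher at an unadjusted p under 0.05, again without a share over all loci. DESeq2 again called 0 lower. The median log2 change of the 10 loci was 0.04 at 3 h, 0.60 at 12 h, and 0.14 between the cold time points, and the medians over all loci were −0.01, −0.03, and −0.03. The comparisons with 22 °C share their control libraries. RVE4 and LNK1 were called in none of the comparisons.

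**Figure D1:**
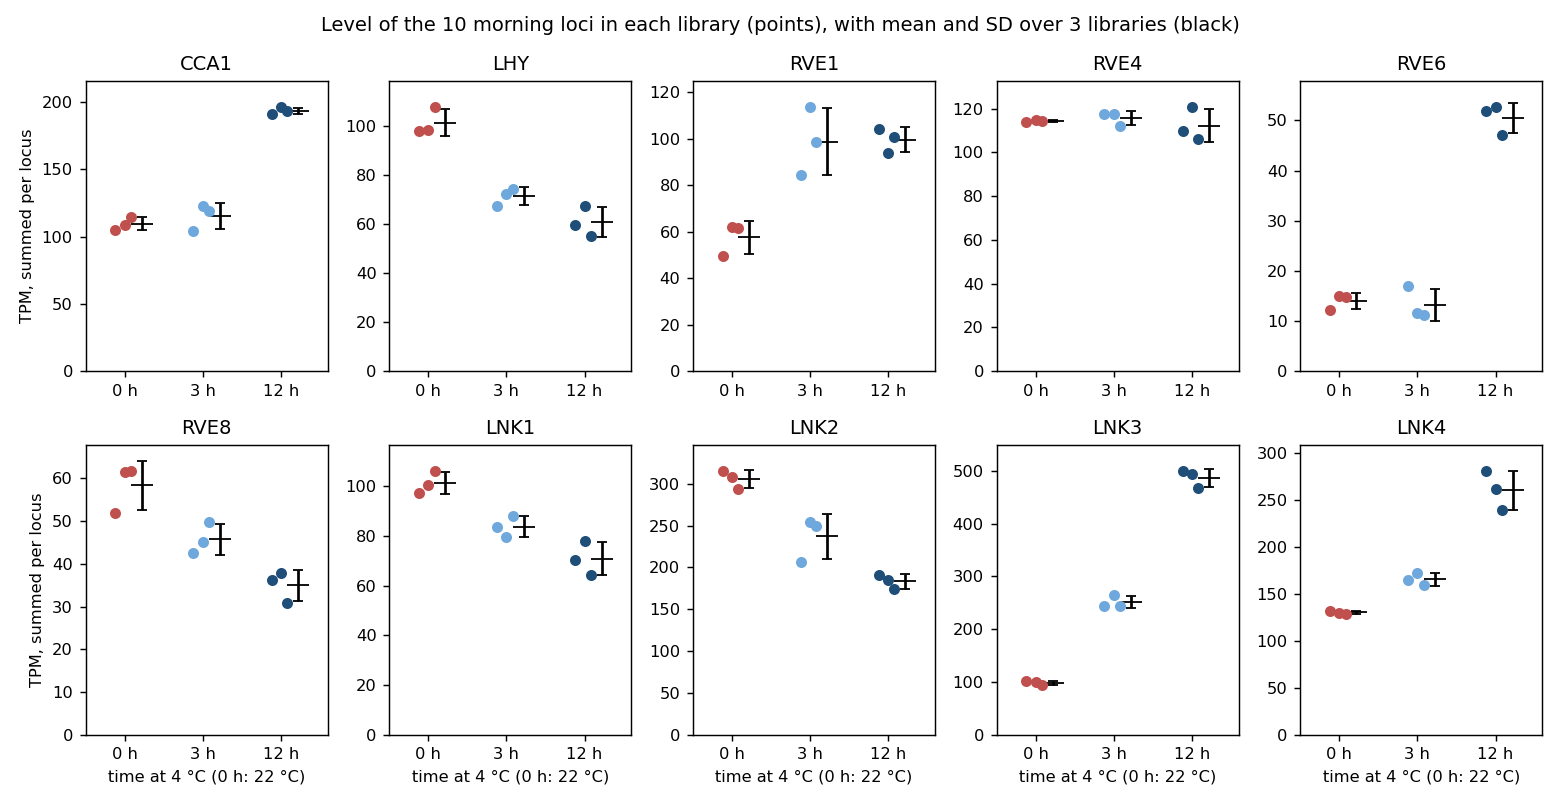
TPM summed per locus (vertical axis, from 0) in each of the 9 libraries (points) at 0 h (22 °C), 3 h, and 12 h at 4 °C, with the mean and SD of 3 libraries in black. LNK3 climbs from 94.9 to 102 TPM at 0 h to 467.5 to 499.8 TPM at 12 h, while RVE4 stays between 106 and 121 TPM throughout.

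**Figure D2:**
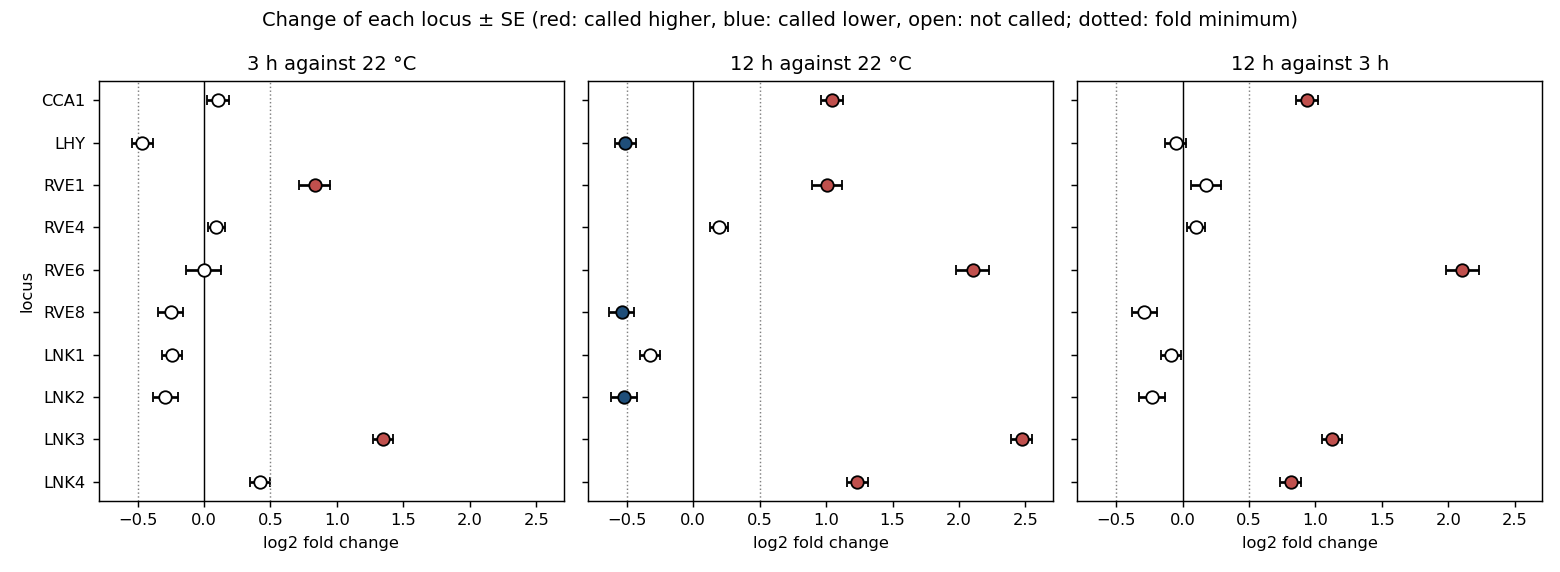
Log2 fold change ± SE of each locus (horizontal axis) from edgeR for the 3 comparisons, with filled points for loci called higher (red) or lower (blue) and dotted lines at the fold minimum of 0.5. The rises reach 2.47 (LNK3) and 2.102 (RVE6) at 12 h, and the called falls lie between −0.54 and −0.51, close to the minimum.

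CCA1 (AT2G46830, chromosome 2, 19245591 to 19248915, plus strand) encodes the MYB-like repressor that, with LHY, marks the morning. Its level was 105, 109, and 114.5 TPM in the 3 libraries at 22 °C, 104, 123, and 119 TPM after 3 h, and 191, 196, and 193 TPM after 12 h. The first 2 groups overlap, and every 12 h library lies above both. CCA1 was 2.06-fold higher at 12 h than at 22 °C (log2 change 1.04, SE 0.08, edgeR adjusted p = 3.27e-08) and 1.92-fold higher than at 3 h. At 3 h its log2 change of 0.10 was close to its SE of 0.08 (edgeR adjusted p = 0.466).

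Below this flat total at 3 h, the forms of CCA1 changed. CCA1.1 encodes the annotated protein of 608 residues. CCA1.2 differs within intron 4, where it keeps the first 367 of 478 bases (chromosome 2, 19246385 to 19246751) and splices out the last 111 through a second donor. Read from the start codon of CCA1.1, the kept sequence closes the frame with TAA after 86 codons, and the annotated start of CCA1.2 lies downstream, for 526 residues. The SHAQKYF-type motif of the MYB domain, at residue 63 of CCA1.1, is not in that shorter protein. The splice sites below distinguish the forms. Each has 10 exon and 20 intron bases, with the exon first for the donors and the intron first for the acceptor. The intron's outer 2 bases are in capitals, and the last line shows the stop codon in capitals.
CCA1.1 donor, chr2:19246375-19246404, plus strand: tttctccaagGTaaaatcggttaattttga
CCA1.2 donor, chr2:19246742-19246771, plus strand: agccatagagGTaaaccatttttgattttc
Acceptor of both, chr2:19246843-19246872, plus strand: actactctcatctctctcAGgtagagaaag
First stop in CCA1.2, chr2:19246418-19246447, plus strand: tcttcattggctTAAtgcttaagacttatt
Both donors begin with the usual GT and share the next 3 bases of the intron.

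CCA1.2 made up 29.5%, 25.1%, and 31.7% of CCA1 TPM in the libraries at 22 °C, 6.21%, 8.25%, and 10.3% after 3 h, and 4.51%, 4.57%, and 3.099% after 12 h. No cold library overlaps the control libraries. The shift was −20.6 percentage points at 3 h (edgeR diffSpliceDGE, adjusted p for the locus = 4.16e-08) and −24.7 points at 12 h (adjusted p = 5.9e-20). CCA1 is 1 of 3 of the 10 loci called for transcript usage at 3 h, with RVE1 and LNK3, beside 4.59% of the 6739 loci tested, where a call needs 1 transcript that shifts by 10 points or more and 0.05 as the limit for the adjusted p. In TPM, CCA1.2 went from 31.6 ± 4.55 (SD, n = 3) to 9.60 ± 2.91 and 7.86 ± 1.63, while CCA1.1 went from 77.8 ± 3.7 to 105.6 ± 7.6 and 186 ± 2.5. CCA1.1 thus held nearly all CCA1 RNA at 12 h. CCA1.3, which starts inside intron 4, was assigned no read in any library.

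LHY (AT1G01060, chromosome 1, 33365 to 37871, minus strand), the close relative of CCA1 with which it forms dimers, moved the other way. It had 98.0, 98.1, and 107.5 TPM at 22 °C, 67.5, 72.3, and 74.3 TPM after 3 h, and 59.8, 67.2, and 55.2 TPM after 12 h. Every cold library lies below every control library. In TPM the 12 h libraries also lie below those at 3 h. In normalized CPM, the count scale of the test, the libraries at 3 h (99.8 to 113.8) and 12 h (97.5 to 111.1) overlap. The log2 change was −0.46 at 3 h (SE 0.08, edgeR adjusted p = 0.000481), short of the fold minimum, and −0.51 at 12 h (SE 0.08, edgeR adjusted p = 5.43e-05), just past it. The 12 h call is lost, at −0.50 to −0.47, with DESeq2, with DESeq2's size factors, and without control replicate 3, 12 h replicate 1, or 12 h replicate 3. The 3 h fall is called with upper quartile factors (−0.52) and without 3 h replicate 3 (−0.50).

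The ratio of CCA1 to LHY TPM within a library, a measure chosen after the values were seen, was 1.07, 1.11, and 1.06 at 22 °C. It was 1.54, 1.70, and 1.598 after 3 h and 3.20, 2.92, and 3.499 after 12 h. The genes were thus near parity at ZT4 in the controls. CCA1 TPM exceeded LHY TPM in every library, by more at 3 h than at 22 °C and by most at 12 h. The groups do not overlap.

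The forms of LHY differ mainly in the leader before the coding sequence. LHY.1 and LHY.4 differ by 3 coding bases and by their ends and encode 645 and 644 residues. LHY.2 keeps the first intron of 170 bases (chromosome 1, 37399 to 37568), and LHY.7 keeps the second of 169 bases (37204 to 37372). Both introns lie in the 5′ untranslated leader, so the protein of LHY.2 and LHY.7 is that of LHY.1. The leader of LHY.2 holds 8 ATG triplets before the start codon and that of LHY.1 holds 5. The ends of the first intron are shown with its outer 2 bases in capitals, because LHY.2 keeps it.
LHY intron 1 donor, chr1:37549-37578, minus strand: actctcaaggGTataacagtttacattatg
LHY intron 1 acceptor, chr1:37389-37418, minus strand: tgatatgaagatttgtgaAGgttttggctg

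LHY.2 was at 1.15%, 0%, and 0% of LHY TPM at 22 °C (33.6, 0, and 0 estimated reads), at 3.501%, 3.15%, and 3.92% after 3 h, and at 23.1%, 29.1%, and 29.4% after 12 h. It was thus near absence in the controls and held 23.1% or more of LHY TPM in each 12 h library. LHY.1 made up 49.4%, 47.7%, and 43.1% at 22 °C, 49.0%, 55.5%, and 57.0% after 3 h, and 33.2%, 28.7%, and 23.0% after 12 h. LHY.4 kept to group means of 43.6%, 39.7%, and 40.5%. The change in LHY usage was called at 12 h against 22 °C (edgeR diffSpliceDGE, adjusted p = 0.00242) and against 3 h (adjusted p = 6.12e-05), the only member called in the latter, beside 5.83% of the loci tested. Against 3 h that call rests on the shift of −25.5 points in LHY.1 (adjusted p = 3.06e-05), since the shift of 23.7 points in LHY.2 had an adjusted p of 0.353 in diffSpliceDGE. In TPM, LHY.2 reached 16.5 ± 2.9 at 12 h beside 17.3 ± 4.0 for LHY.1. LHY.7 was at 9.02% ± 2.17 at 22 °C, 2.49% ± 0.78 after 3 h, and 2.43% ± 1.22 after 12 h, so that the introns on either side of the same short leader exon went in opposite directions. For LHY.7, whose share stayed under the minimum for naming, this was noticed after the values were seen.

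**Figure D3:**
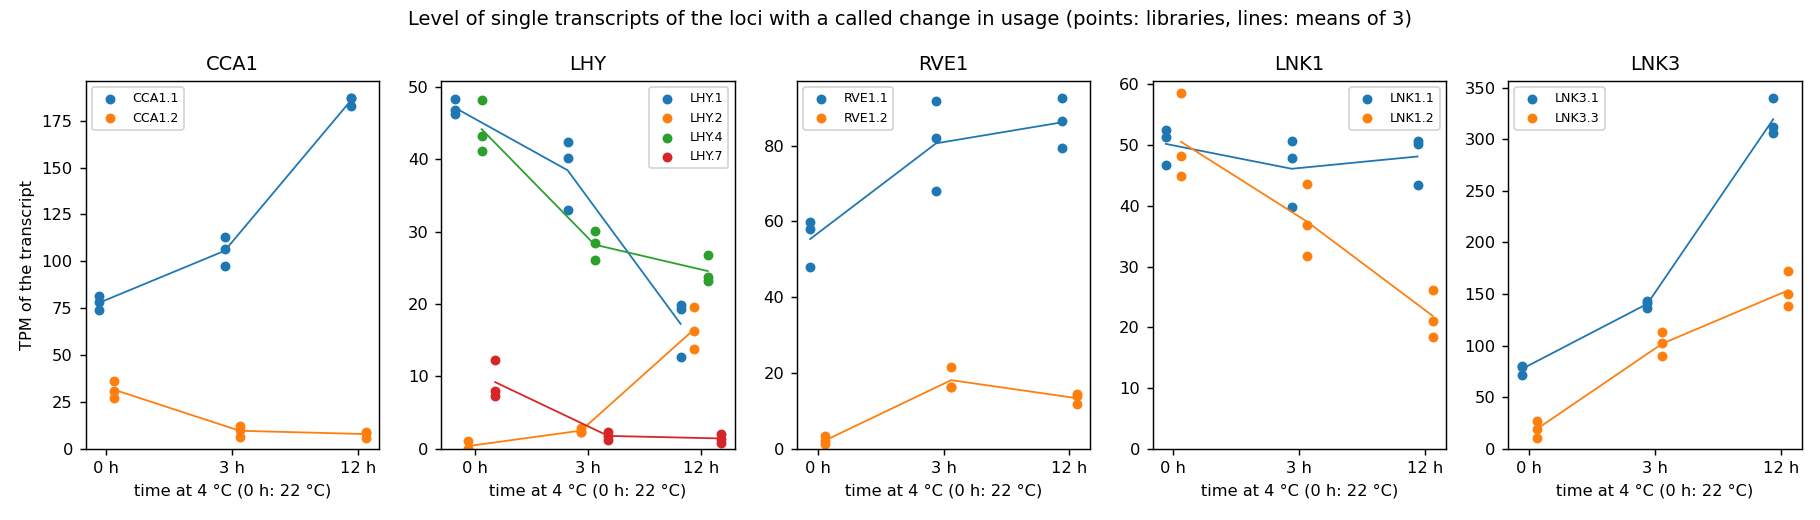
TPM of single transcripts (vertical axis, from 0) of the 5 loci with a called change in usage, in each library (points) with lines through the means of 3. CCA1.1 and CCA1.2 part in opposite directions, LHY.2 reaches 13.8 to 19.5 TPM at 12 h, and LNK1.1 stays near 50.2 TPM while LNK1.2 is lower in the cold.

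RVE1 (AT5G17300, chromosome 5, 5690225 to 5692992, minus strand) encodes the MYB-like factor that promotes auxin synthesis during the day. It had 49.3, 61.9, and 61.5 TPM at 22 °C, 84.3, 113, and 98.4 TPM after 3 h, and 104, 93.8, and 100.5 TPM after 12 h. All cold libraries lie above all controls, and the cold groups overlap. RVE1 rose 1.78-fold at 3 h (log2 change 0.83, SE 0.12, edgeR adjusted p = 7.16e-05) and was 2.01-fold higher at 12 h (1.01, SE 0.12, edgeR adjusted p = 2.58e-06). Between 3 and 12 h its log2 change was 0.18 (SE 0.11, edgeR adjusted p = 0.242).

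RVE1.2 keeps intron 3 of 86 bases, within the coding region. Read from the start codon of RVE1.1, the frame then closes with TAG after 86 codons, and the annotated start lies downstream, for 312 in place of 387 residues. The SHAQKYF-type motif is in both annotated proteins, at residue 94 of RVE1.1 and 19 of RVE1.2, so the shorter one lacks sequence before the motif. Only the motif was searched, and whether the rest of the MYB domain is whole in RVE1.2 was not examined.

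The share of RVE1.2 was 2.66%, 3.17%, and 5.504% at 22 °C, 19.3%, 19.1%, and 16.6% after 3 h, and 11.3%, 15.4%, and 13.8% after 12 h. It was highest at 3 h, and none of the 3 groups overlaps another. The shift of 14.6 points at 3 h was called (edgeR diffSpliceDGE, adjusted p = 5.89e-10). That of 9.71 points at 12 h (adjusted p = 1.42e-06) fell just short of 10 points, and it is called without control replicate 3 or 12 h replicate 1. The spliced form RVE1.1 had a mean of 55.4 ± 6.4 TPM at 22 °C, 80.6 ± 11.9 after 3 h, and 86.1 ± 6.6 after 12 h. RVE1.2 had 2.22 ± 1.06, 18.1 ± 3.1, and 13.4 ± 1.4 TPM. CCA1 and RVE1, both with a form in which an intron closes the reading frame, thus differed in sign, the form being less frequent in the cold for CCA1 and more frequent for RVE1. RVE8 and LNK2, described below, also have such forms, and usage was called for neither locus. The mean share at 12 h was below that at 22 °C for RVE8 intron 1 (34.5% and 51.4%) and for LNK2.2 (12.6% and 18.1%).

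**Figure D4:**
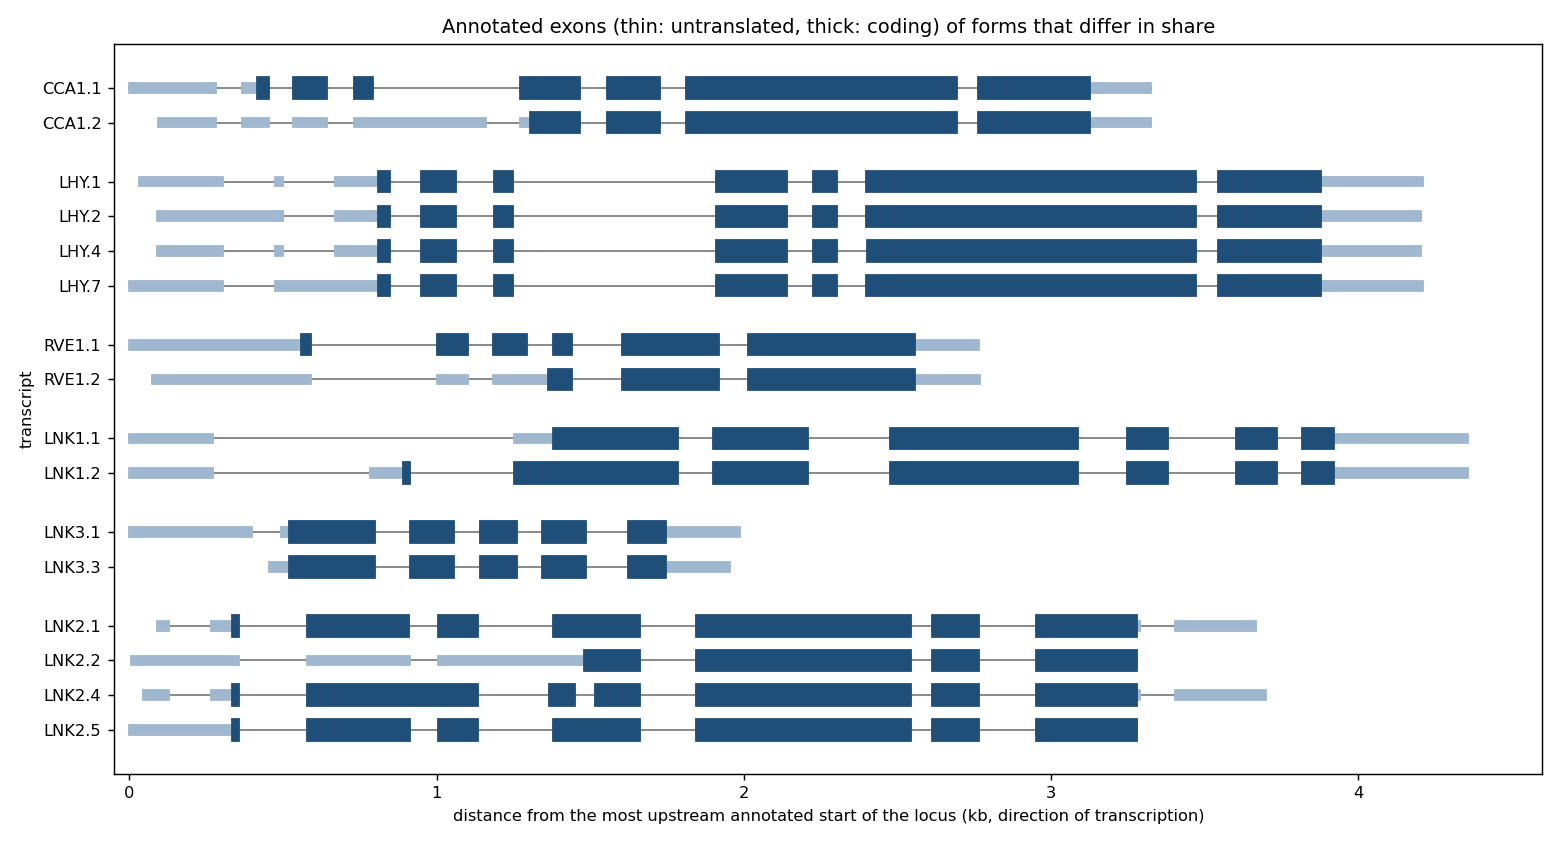
Exons of the transcripts compared in the text, drawn to scale as distance in kb from the most upstream annotated start of the locus (thin boxes untranslated, thick boxes coding, lines introns). CCA1.2 keeps 367 bases of intron 4, LHY.2 and LHY.7 keep 1 leader intron each, RVE1.2 keeps 86 bases, LNK1.2 has an extra exon of 130 bases, and LNK3.3 starts downstream of LNK3.1.

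Among the activators of the RVE8 clade, each locus behaved differently. RVE4 (AT5G02840, chromosome 5, 648648 to 651979, plus strand) had 114, 115, and 114.5 TPM at 22 °C, 117.5, 117, and 112 TPM after 3 h, and 110, 121, and 106 TPM after 12 h. The TPM groups overlap. In normalized CPM, the count scale of the test, the group means were 92.3, 98.4, and 105.6 and the groups do not overlap. By edgeR, the log2 change at 3 h was 0.09 (SE 0.07, adjusted p = 0.408). At 12 h it was 0.19 (SE 0.07, edgeR adjusted p = 0.0231), under the fold minimum. TPM and normalized CPM thus give RVE4 a different order of groups, since TPM is a share of all transcripts after length correction and the count scale uses TMM factors. RVE4.1, for 293 residues, held 78.4%, 81.5%, and 78.3% on average, RVE4.3, for 283 residues, held 17.7%, 15.8%, and 18.3%, and usage was not called.

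RVE6 (AT5G52660, chromosome 5, 21359001 to 21362273, minus strand) was the lowest of the 10 loci at 22 °C, with 12.2, 14.9, and 14.8 TPM. After 3 h it had 16.9, 11.6, and 11.2 TPM, and after 12 h 52.0, 52.6, and 47.1 TPM. The first groups overlap and the 12 h libraries stand well above them. RVE6 was 4.29-fold higher at 12 h than at 22 °C (log2 change 2.102, SE 0.13, edgeR adjusted p = 1.14e-09) and 4.302-fold higher than at 3 h. Its forms RVE6.1 and RVE6.2, which differ by 3 coding bases and in their ends, encode 330 and 331 residues. RVE6.2 held 45.0% to 71.0% at 22 °C, 35.4% to 69.8% after 3 h, and 66.1% to 68.2% after 12 h, and no shift was called at this depth of 229 to 455 reads per library before 12 h.

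RVE8 (AT3G09600, chromosome 3, 2946239 to 2949017, plus strand), the namesake of the clade, had 51.8, 61.6, and 61.7 TPM at 22 °C, 42.4, 45.1, and 49.7 TPM after 3 h, and 36.2, 37.8, and 30.9 TPM after 12 h. The TPM groups step down without overlap, while in normalized CPM the libraries at 22 °C (50.05 to 58.25) and 3 h (41.3 to 51.3) overlap. On the count scale it was 0.69-fold at 12 h (log2 change −0.54, SE 0.10, edgeR adjusted p = 0.000214). At 3 h the log2 change was −0.25 (SE 0.09, edgeR adjusted p = 0.082). The 12 h call is lost without control replicate 2 (−0.50) or 12 h replicate 3 (−0.48). The ratio of RVE6 to RVE8 TPM, chosen after the values were seen, was 0.239 ± 0.004 at 22 °C, 0.293 ± 0.092 after 3 h, and 1.45 ± 0.07 after 12 h.

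RVE8 has 9 annotated transcripts, 5 of them named here, and the assignment of reads among them varied between replicates. RVE8.1 was at 13.1%, 0%, and 11.8% at 22 °C and RVE8.7 at 22.8%, 12.1%, and 0% after 3 h. RVE8.6 was at 8.79%, 8.20%, and 11.4% at 22 °C, 8.32%, 15.9%, and 25.2% after 3 h, and 31.5%, 30.2%, and 21.8% after 12 h. Every 12 h library of RVE8.6 lies above every control. Its shift of 18.4 points at 12 h against 22 °C had a transcript adjusted p of 0.0315 in diffSpliceDGE. No usage call was made for RVE8 in any comparison, with locus adjusted p values of 0.905, 0.0742, and 1.0 in diffSpliceDGE. At 12 h against 22 °C, RVE8 is called with a filter of at least 10 reads in every library and without 3 h replicate 1 or 3 h replicate 3. Shares were also summed over the forms that keep an intron. Intron 1 of 287 bases (chromosome 3, 2946638 to 2946924) was kept in 49.0%, 58.0%, and 47.3% of RVE8 TPM at 22 °C, in 47.4%, 37.5%, and 33.7% after 3 h, and in 39.0%, 26.9%, and 37.5% after 12 h, where the cold libraries at 12 h lie below the controls. Intron 8 of 273 bases (2948297 to 2948569), after the stop codon, was kept in 33.7%, 31.4%, and 30.98% at 22 °C, 31.2%, 28%, and 25.2% after 3 h, and 47.3%, 45.4%, and 49.99% after 12 h. Its 12 h libraries lie above all others. These sums over forms were not tested and were chosen after the values were seen.

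Kept intron 1 ends the RVE8 frame after 60 codons at its very first bases, and the annotated start of RVE8.3 and RVE8.5 lies downstream, for 242 and 226 in place of 298 and 282 residues. The SHAQKYF-type motif stands at residue 82 of RVE8.1 and 26 of RVE8.3, and whether the rest of the MYB domain is whole in RVE8.3 was not examined. The stop codon is in capitals, and the base before it is the first of the intron.
First stop in RVE8.3, chr3:2946627-2946656, plus strand: gcacttcaactgTAAtaatttatctctgtt

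The LNK genes encode coactivators that lack a DNA-binding domain of their own and are brought to promoters by RVE proteins. At 12 h LNK3 and LNK4 rose and LNK2 fell, while LNK1 was lower by less than the fold minimum. LNK1 (AT5G64170, chromosome 5, 25672466 to 25676823, minus strand) had 97.3, 100.4, and 106 TPM at 22 °C, 83.6, 79.7, and 88.2 TPM after 3 h, and 70.4, 77.9, and 64.4 TPM after 12 h. Each cold library lies below each control. LNK1 had a log2 change of −0.24 at 3 h (SE 0.08, edgeR adjusted p = 0.0417). At 12 h it was −0.33 (SE 0.08, edgeR adjusted p = 0.00215), so neither reached the fold minimum.

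LNK1.2 includes an exon of 130 bases (chromosome 5, 25675911 to 25676040) that LNK1.1 skips. The exon holds the start codon of LNK1.2, which encodes 616 residues, while LNK1.1 starts at a codon in the next exon and encodes 566. The start codons of both are shown in capitals.
LNK1.2 start codon, chr5:25675917-25675946, minus strand: aagttgggaggaATGtcggacttgtacatt
LNK1.1 start codon, chr5:25675428-25675457, minus strand: agaaatgatgatATGggtagtggaacaaac
LNK1.2 made up 46.2%, 48.0%, and 55.1% of LNK1 TPM at 22 °C, 52.2%, 39.8%, and 41.8% after 3 h, and 26.2%, 33.6%, and 32.6% after 12 h. The 12 h libraries lie below all others. The shift of −18.9 points at 12 h was called (edgeR diffSpliceDGE, adjusted p = 0.00251), and CCA1, LHY, and LNK1 are the 3 loci called at 12 h, beside 11.4% of the loci tested. In TPM, LNK1.1 held at 50.2 ± 3.0, 46.1 ± 5.6, and 48.1 ± 4.1, and LNK1.2 went from 50.5 ± 7.1 to 37.4 ± 6.0 and 21.9 ± 3.9. The form that was lower at 12 h is thus the one with the longer annotated protein. Between 3 and 12 h the shift was −13.8 points (adjusted p = 0.0678), not called, though it is called by limma's diffSplice, with the filter of at least 10 reads in every library, and without control replicate 3 or 12 h replicate 2.

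LNK2 (AT3G54500, chromosome 3, 20175370 to 20179070, minus strand) was the most abundant of the 10 loci at 22 °C, with 315, 308, and 294 TPM. It had 207, 255, and 250 TPM after 3 h and 191, 185, and 174 TPM after 12 h. The TPM groups do not overlap, and 3 h replicate 1 lies closer to the 12 h libraries than to its own group. In normalized CPM the libraries at 3 h (337 to 438) and 12 h (324 to 367) overlap. The log2 change was −0.29 at 3 h (SE 0.10, edgeR adjusted p = 0.05) and −0.52 at 12 h (SE 0.10, edgeR adjusted p = 0.000317), 0.70-fold. The 12 h call is lost without control replicate 1 or 12 h replicate 3 (−0.49 in each). Without 12 h replicate 3, none of the falls of LHY, RVE8, and LNK2 is called.

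LNK2 has 8 transcripts, 4 of them named, and with all 9 libraries no shift reached 10 points. LNK2.1, for 648 residues, held means of 44.9%, 44.7%, and 49.4%. LNK2.5, which keeps the first intron in its leader, went from 18.7% ± 0.9 to 13.0% ± 3.2 and 9.07% ± 2.08, and its 12 h shift of −9.68 points had a locus adjusted p of 2.78e-05 in diffSpliceDGE. LNK2 is called at 12 h without control replicate 1 or 12 h replicate 2. LNK2.4, which keeps a 96-base intron as coding sequence and removes a 65-base stretch instead, went from 12.3% ± 1.7 to 21.9% ± 3.1 and 18.1% ± 2.6. Its 3 h shift of 9.65 points (locus adjusted p = 0.00337) is called without control replicate 1 or 3 h replicate 2. LNK2.2, in which a kept intron of 244 bases ends the frame after 163 codons and the annotated protein has 453 residues, had 18.1% ± 0.8, 14.5% ± 1.6, and 12.6% ± 2.8. The first intron of 136 bases (20178805 to 20178940), summed over all LNK2 forms, was kept in 40.7% ± 1.6 of LNK2 TPM at 22 °C, 30.2% ± 3.4 after 3 h, and 23.5% ± 3.0 after 12 h, a sum that was not tested.

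LNK3 (AT3G12320, chromosome 3, 3923515 to 3925502, plus strand) showed the largest rise of the 10 loci in both comparisons with 22 °C. It had 102, 99.6, and 94.9 TPM at 22 °C, 244.8, 264, and 244.8 TPM after 3 h, and 499.8, 494, and 467.5 TPM after 12 h. The groups are far apart at each step. LNK3 rose 2.54-fold at 3 h (log2 change 1.35, SE 0.08, edgeR adjusted p = 2.76e-09) and was 5.54-fold higher at 12 h (2.47, SE 0.08, edgeR adjusted p = 6.03e-13), with a further 2.18-fold rise between them. LNK3.1 and LNK3.3 encode the same 269 residues. LNK3.3 starts downstream, within the first intron of LNK3.1, and has a leader of 65 in place of 425 bases.

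LNK3.3 made up 26.5%, 19.1%, and 11.5% of LNK3 TPM at 22 °C, 36.8%, 42.8%, and 42.0% after 3 h, and 29.9%, 34.9%, and 29.6% after 12 h. The controls vary most, and each lies below every cold library. At 3 h the shift was 21.5 points for LNK3.3 and −22.2 points for LNK3.1 (edgeR diffSpliceDGE, adjusted p = 0.00116). At 12 h the shift of −12.6 points for LNK3.1 was not called (adjusted p = 0.137), though it is called by limma's diffSplice and without control replicate 1. Both forms were more abundant in the cold, LNK3.1 with 77.2 ± 5.0, 140.5 ± 3.7, and 319 ± 18.1 TPM and LNK3.3 with 19.02 ± 8.07, 102 ± 11.6, and 154 ± 17.3 TPM.

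LNK4 (AT5G06980, chromosome 5, 2167120 to 2169437, plus strand) had 132, 130, and 129 TPM at 22 °C, 165, 172, and 159 TPM after 3 h, and 280, 261, and 239 TPM after 12 h. It stepped up without overlap, in smaller steps than LNK3. Its log2 change of 0.42 at 3 h (SE 0.08, edgeR adjusted p = 0.000821) was under the fold minimum, and at 12 h LNK4 was 2.35-fold higher (1.23, SE 0.08, edgeR adjusted p = 1.6e-09). LNK4.2, for 274 residues, held 57.7%, 62.9%, and 65.0% on average, and LNK4.5, which keeps a leader intron of 86 bases, held 32.3%, 31.5%, and 28.5%. No usage change was called for LNK4. A gene on the same strand, AT5G06990, overlaps LNK4, and genes on the opposite strand overlap RVE1, LNK1, LNK2, and LNK3. The libraries were strand-specific, but how strand was used in the assignment is not given in the sources used here.

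**Figure D5:**
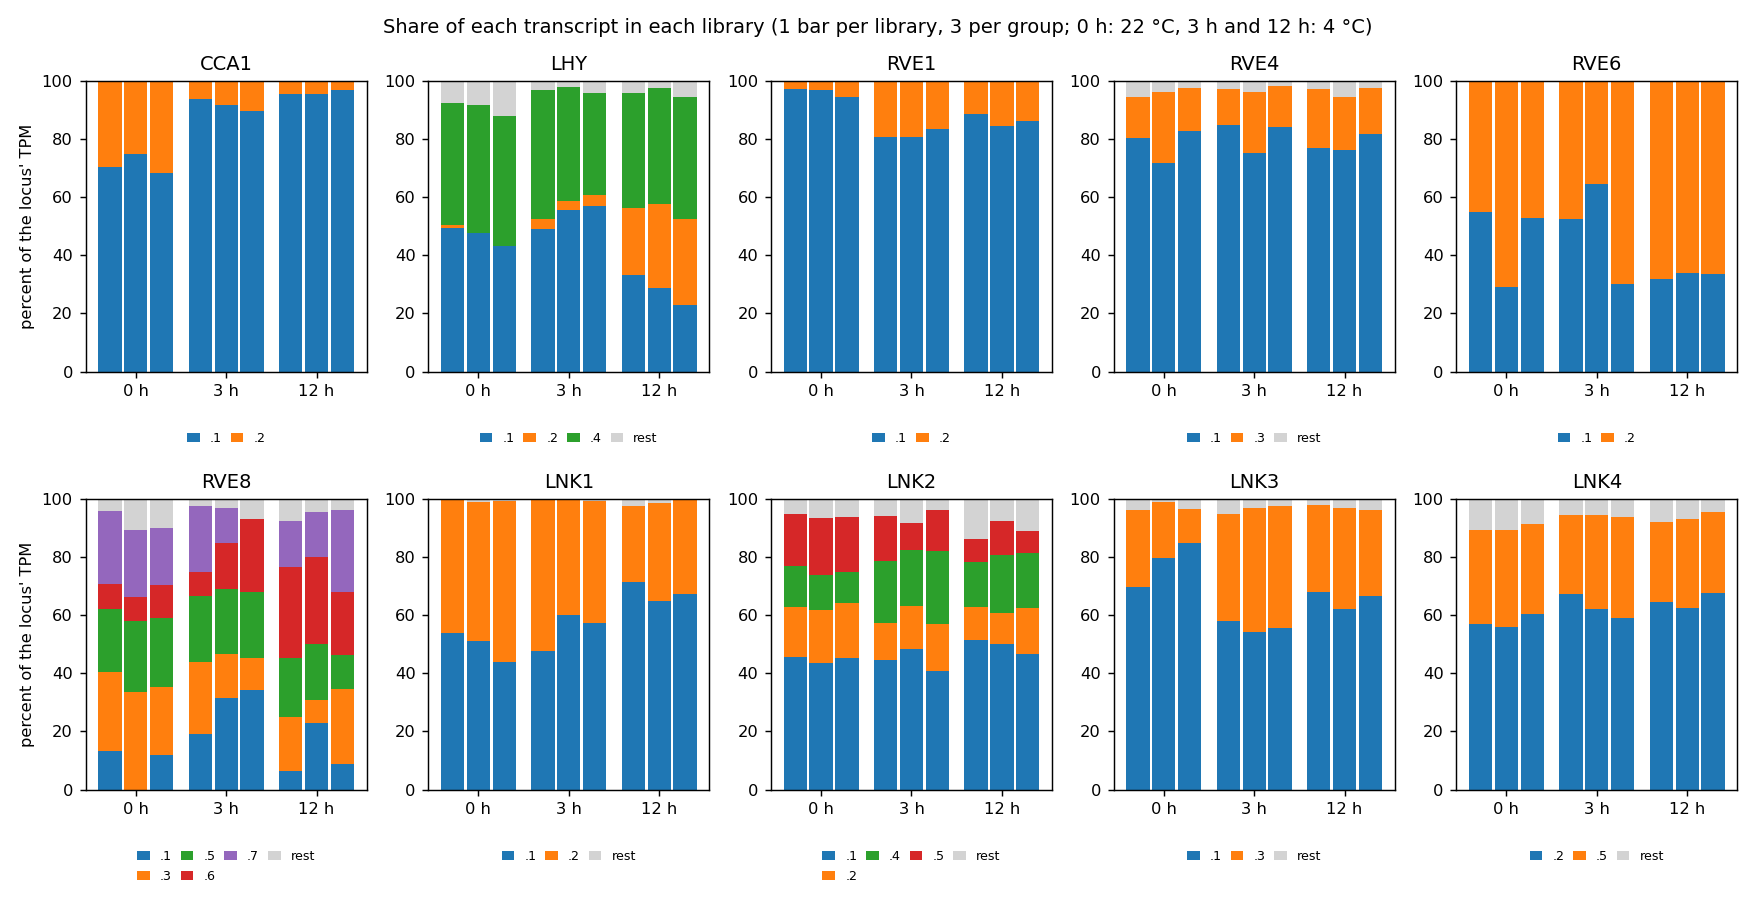
Percent of the TPM of each locus held by each transcript (stacked colors, grey for transcripts under 10% in every group), with 1 bar per library and 3 bars per group. CCA1, LHY, RVE1, LNK1, and LNK3 show shifts that all 3 bars of a group share, whereas the bars of RVE8 and of RVE6 before 12 h differ within a group.

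The balance between the LNK pairs differed by group. The summed TPM of LNK3 and LNK4 over that of LNK1 and LNK2, chosen after the values were seen, was 0.567, 0.563, and 0.559 at 22 °C, 1.41, 1.30, and 1.195 after 3 h, and 2.98, 2.88, and 2.96 after 12 h. LNK1 and LNK2 thus had the higher sum at ZT4 in the controls and LNK3 and LNK4 at ZT16 in the cold. In order of TPM at 22 °C, LNK2 stood first at 305.5, followed by LNK4 (130), RVE4 (114.5), CCA1 (109), LNK1 (101), LHY (101), LNK3 (98.9), RVE8 (58.4), RVE1 (57.6), and RVE6 (13.96). From RVE4 to LNK3 each neighbor overlaps the next in its libraries, as do RVE8 and RVE1. At 12 h the order was LNK3 (487), LNK4 (260), CCA1 (193), LNK2 (183), RVE4 (112), RVE1 (99.5), LNK1 (70.9), LHY (60.7), RVE6 (50.6), and RVE8 (35.0), and the libraries overlap only between CCA1 and LNK2 and between LNK1 and LHY among neighbors.

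The promoters of CCA1, LHY, RVE1, and LNK3 are shown because they hold a G-box (CACGTG, the same on both strands), a choice made after the values were seen. They are the 250 bases before the most upstream annotated start, with motif matches in capitals. The only matches in these windows are G-boxes.
CCA1 promoter, chr2:19245341-19245590, plus strand: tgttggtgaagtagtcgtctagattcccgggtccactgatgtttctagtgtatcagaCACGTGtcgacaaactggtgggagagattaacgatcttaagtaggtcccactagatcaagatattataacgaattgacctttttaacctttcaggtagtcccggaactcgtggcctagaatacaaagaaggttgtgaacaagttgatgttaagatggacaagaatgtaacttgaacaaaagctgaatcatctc
LHY promoter, chr1:37872-38121, minus strand: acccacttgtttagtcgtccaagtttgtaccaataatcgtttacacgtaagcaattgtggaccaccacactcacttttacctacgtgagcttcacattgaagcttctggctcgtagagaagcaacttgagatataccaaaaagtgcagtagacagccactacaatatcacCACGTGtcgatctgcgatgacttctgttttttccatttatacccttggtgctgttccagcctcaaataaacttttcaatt
RVE1 promoter, chr5:5692993-5693242, minus strand: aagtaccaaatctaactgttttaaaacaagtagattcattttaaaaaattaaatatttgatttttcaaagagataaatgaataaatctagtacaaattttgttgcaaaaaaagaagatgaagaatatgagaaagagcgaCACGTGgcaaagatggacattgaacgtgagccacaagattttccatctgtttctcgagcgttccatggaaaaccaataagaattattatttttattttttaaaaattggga
LNK3 promoter, chr3:3923265-3923514, plus strand: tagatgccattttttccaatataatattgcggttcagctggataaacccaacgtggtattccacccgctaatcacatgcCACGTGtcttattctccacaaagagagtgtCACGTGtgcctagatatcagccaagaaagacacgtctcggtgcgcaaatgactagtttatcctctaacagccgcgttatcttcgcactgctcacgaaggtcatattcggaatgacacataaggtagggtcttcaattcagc
The G-box was found in 4 of the 10 promoters and in 6.49% of 27443 promoters of protein-coding genes of the same length. LNK3 holds a pair of them. RVE6 and LNK4, also called higher at 12 h, hold none, and LHY, called lower at 12 h, holds 1. Searched on both strands in the same way, the evening element (AAATATCT) was in none of the 10 and in 4.79% of all. The CCA1-binding site (AAAAATCT) was in RVE6 alone, with 6.69% of all, and the CRT/DRE core (CCGAC), to which CBF factors bind, in LNK4 alone, with 12.0% of all. The LUX-binding site (GATACG or GATTCG) was in RVE4 and LNK2 and in 12.1% of all promoters. None of the matches overlaps another. These matches are letters in a window and were not tested for use.

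Genes that these factors are known to bind were higher at 12 h. Of the 10 loci listed as targets of CCA1, LHY, or the RVE8 complex, 7 were higher at 3 h, beside 7.05% of all loci. All 10 were higher at 12 h, beside 15.5%, and between 3 and 12 h, beside 11.0%. No target was lower in these comparisons, beside 3.47%, 17.7%, and 14.8% of all loci. Cold, light, and time of day cannot be told apart in the comparisons with 22 °C. The median log2 change of the targets was 1.77 at 3 h and 3.97 at 12 h, beside −0.01 and −0.03 over all loci. TOC1, the evening repressor, rose by 2.27 (SE 0.16) and 4.64 (SE 0.17), PRR5 by 6.66 (SE 0.25) and 7.93 (SE 0.25), and LUX by 1.27 (SE 0.15) and 2.43 (SE 0.15). In the controls, PRR5 and ELF4 had 2.08 and 1.76 normalized CPM. A list of 19 other clock loci includes 8 of those targets, and 18 of the 19 were tested. At 3 h, 7 were higher and 1 lower, beside 7.05% and 3.47% of all loci. At 12 h, 13 were higher and 2 lower, beside 15.5% and 17.7%. From the RVE family, RVE2 rose by 4.87 (SE 0.12) at 3 h and stood 4.62 (SE 0.12) above the controls at 12 h. The locus lower at 3 h was RVE3, with a log2 change of −1.15 (SE 0.22). Between 3 and 12 h RVE3 rose by 0.81 (SE 0.22), and against 22 °C it was not called at 12 h. RVE5 fell by 0.90 (SE 0.11) at 12 h, and RVE7 was not called.

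For each member, the locus with the most similar course was sought among 13207 expressed loci by Pearson's r of log2 CPM over the 9 libraries, which form 3 groups and share library and depth. CCA1 was closest to CYP76C1 (r = 0.9988), RVE6 to BGLU25 (0.9983), LNK3 to AT3G27210 (0.9981), and LNK4 to emb2734 (0.997). For the other 6 members the highest r lay between 0.9748 (LNK1 with BETA-OHASE 1) and 0.9895 (LHY with AT2G46915). Since the libraries form 3 groups, r mostly follows the group means.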

How the data were processed

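Per the study's methods, rRNA reads were removed with SortMeRNA, adapters with Trimmomatic, and reads were assigned to ARAPORT11 transcripts with Salmon. The estimated counts deposited by the authors are Salmon's reads per transcript, neither scaled nor pooled. The TPM values deposited by the authors correct these for effective length. Both were summed per locus and, for tests, estimated counts were rounded. The unit of the tests is reads, so edgeR 4.0.16 (filterByExpr, TMM, quasi-likelihood F test, 1 model over 9 libraries, Benjamini-Hochberg over 20460 loci) was used, with DESeq2 1.42.0, the authors' tool, as an alternative. The SE was obtained by dividing the size of a log2 change by the root of its F. For usage of transcripts, diffSpliceDGE of edgeR gave Simes p values (limma 3.58.1, R 4.3.3). Salmon's own assignment error is not in the values, so the tests cover the spread between libraries only. Per locus, 0% to 0.946% of the 31-base words of member transcripts also occur elsewhere in the genome. Replicates differed by more than sampling noise (chi-square per degree of freedom 3.40 to 13.3). The fits were run on simulated counts. For usage, these exchanged the transcripts of loci with a pair of forms, at a fixed spread and without Salmon's assignment error. That run therefore does not cover members with more forms. Positions, frames, and sequences come from RefSeq's TAIR10.1 with Python 3.11.15, where the SHAQKYF-type motif was searched with Y or F as its second to last residue.

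All members are named, their transcripts from a mean share of 10%. The members, lists, and tests were chosen with earlier results of these data known. Alternatives were other size factors, filters, thresholds, counts from length-scaled TPM, the compared groups alone, a replicate block, and each library left out. The sequence around 1 intron of RVE1 is not reported here.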

Additional observations from a re-analysis of the deposited data

How the results depend on the processing

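No change of a member reversed its direction under an alternative where the change was called. Upper quartile factors moved the median of all loci to −0.16 at 12 h and −0.11 between 3 and 12 h, and gave 1 member lower at 3 h (LHY). With no fold minimum, 2 members were lower at 3 h and 1 between 3 and 12 h. With the fold minimum raised to 1 on the log2 scale, 1 member was higher at 3 h, 0 were lower at 12 h, and 2 were higher between 3 and 12 h. Leaving out 1 library at a time gave 0 to 1 members lower at 3 h and 0 to 3 lower at 12 h (0 without 12 h replicate 3). For transcript usage it gave 3 to 4 called at 3 h, 3 to 5 at 12 h (5 without control replicate 1), and 1 to 2 between 3 and 12 h. A minimum shift of 5 points gave 5 members at 3 h and 5 at 12 h. The shares over all loci given above hold for the main thresholds only. Counts of members at other thresholds therefore have no such share to be read against. Between 3 and 12 h, limma's diffSplice and a filter of at least 10 reads in every library each gave 2, LNK1 beside LHY.

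Libraries of the same replicate number did not deviate together (residual r = −0.197 to 0.105). With the replicate number as a block, 2 members were higher and 0 lower at 3 h, 5 and 3 at 12 h, and 4 and 0 between 3 and 12 h, with 3, 3, and 1 called for usage, as without it. Depth limits RVE6 most, with 229 reads in its lowest library.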

Other observations

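Levels were also summed over members of one role, a choice made after the values were seen. CCA1 and LHY together had 211 ± 10.1 TPM at 22 °C, 187 ± 13.0 after 3 h, and 254 ± 7.8 after 12 h (SD, n = 3). RVE4, RVE6, and RVE8 together had 187 ± 7.6, 174.5 ± 2.0, and 198 ± 13.3 TPM. The 4 LNK loci together had 636 ± 11.5, 737 ± 35.8, and 1002 ± 50.6 TPM. None of these sums was tested.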
